A study of Mus musculus with 9 samples.

Results

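The nuclear genes of the mitochondrial respiratory chain and ATP synthase were followed across 9 mouse kidneys. A gene was taken when the RefSeq accession of its probe mapped to a symbol beginning with Nduf, Sdha, Sdhb, Sdhc, Sdhd, Uqcr, Cox4, Cox5, Cox6, Cox7, Cox8 or Atp5, or to Cyc1. Of 96 such genes with a probe, 93 passed the filter of a probe well above background on at least 3 arrays, out of 17745 genes tested in all. The other 3, Cox4i2, Cox7b2 and Cox8c, were not well above background on any array. Of the 93 genes, 82 encode subunits and 11 are assembly factors, which help build a complex without staying in it and were caught by the same prefixes (Ndufaf and Sdhaf). They fall into 7 core and 29 accessory subunit genes of complex I, 7 assembly factor genes of complex I, Ndufa4, 4 subunit and 4 assembly factor genes of complex II, 9 genes of complex III, 15 of complex IV and 17 of complex V.

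All 9 kidneys came from male mice aged 10 weeks on a mixed strain background with the genotype ISAM (Epo–/–::3.3K-Epo3'-Tg458), in which the erythropoietin gene is deleted and a transgene stands in for it, so every group, controls included, carried this model of erythropoietin-deficiency anaemia. A vascular clip closed the left ureter for 2 days (clip, 3 mice), or was then taken off for a further 12 days (release, 3 mice). The controls were 2 sham-treated mice and 1 untreated mouse, for which the labels give no day. RNA of the whole left kidney was read on single-colour arrays, 1 per mouse, and each of 3 slides carried 1 array of each arm, with the untreated mouse on the third. The 75th percentile of signal ran from 320.4 to 439.2 per array, 52.04% to 57.5% of probes were well above background and 0 spots were saturated. Levels are log2 of a probe's signal over that percentile, so that 0 is the 75th percentile of the array. Levels of different genes come from different probes and are not set against each other.

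The respiratory chain passes electrons from NADH (complex I) and succinate (complex II) through ubiquinone to complex III, cytochrome c and complex IV, which hands them to oxygen. Complexes I, III and IV pump protons across the inner mitochondrial membrane, and the ATP synthase, complex V, makes ATP as the protons flow back. Kidney tubule cells, above all those of the proximal tubule and thick ascending limb, are rich in mitochondria and use this ATP to drive solute transport. The subunits encoded in mitochondrial DNA are outside the gene set described here.

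After 2 days of obstruction the genes of all 5 complexes fell together. In clip against control kidneys 81 of the 93 genes were lower and 0 were higher (limma, BH-adjusted p under 0.05 over all 17745 genes), where 27.5% of all genes were lower and 21.4% higher. The fitted change was below 0 in all 93. Its median was -0.79 on the log2 scale, a fall of 1.73-fold, with a range from -3.21 to -0.15, and the median of all genes was -0.09. Falls of 2-fold or more that passed the test numbered 17 (9.49% of all genes did so). The clip arrays lay wholly below the control arrays in 84 genes, or 90.3%, against 33.2% of all genes.

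The 3 clip kidneys moved alike. The median gene lay 0.69, 0.89 and 0.81 log2 units below its control mean in clip 1, clip 2 and clip 3. Within the 3 slides the median clip minus control difference was -0.79, -0.95 and -0.68, and 89 of the 93 genes were lower on every slide. With slide as a block 86 genes were lower (33.1% of all genes). The levels of the 93 genes summed to 6520 to 7460 times the 75th percentile in control arrays, 3860 to 4460 in clip arrays and 6270 to 7130 in release arrays.

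**Figure D1:**
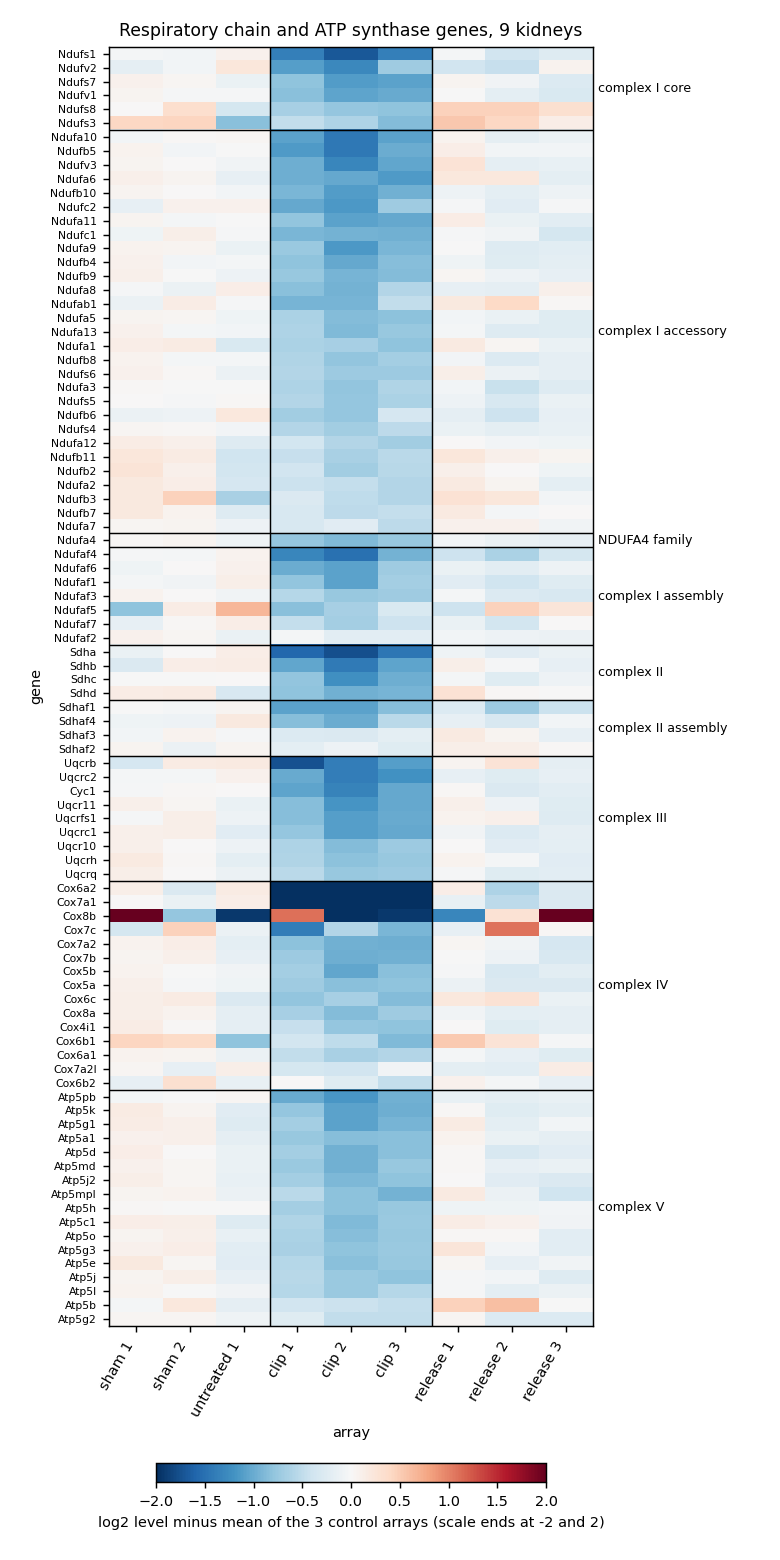
Level of 92 of the 93 genes (rows, grouped by complex) on each of the 9 arrays (columns), as the log2 difference from the mean of the 3 control arrays; blue is lower and red is higher, and colours end at -2 and 2. The 3 clip columns are blue in nearly every row, the release columns are close to the control columns, and the row of Cox8b varies within every arm.

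Complex I takes electrons from NADH. Of its 7 core genes, which encode conserved catalytic subunits, 6 were lower (median -1.0), and of its 29 accessory genes 28 were lower (median -0.76). Ndufs1, for the core subunit with several of the iron-sulfur clusters, stood at 6.34, 6.32 and 6.46 in sham 1, sham 2 and the untreated kidney, at 5.0, 4.68 and 5.01 in the clip kidneys and at 6.33, 5.99 and 6.12 in the release kidneys. It fell 2.78-fold (log2 change -1.47 ± 0.13, fitted SE, n = 3 per arm; adjusted p = 3.97e-05). Every clip kidney lay below every other kidney, while the release and control kidneys overlapped. Ndufv2, for a flavin-side core subunit, fell 2.04-fold (-1.03 ± 0.20). Among accessory subunits the largest falls were those of Ndufa10 and Ndufb5 (-1.19 ± 0.12 and -1.19 ± 0.13) and Ndufv3 (-1.10 ± 0.15). Ndufb5 stood at 2.67, 2.54 and 2.59 in control, 1.46, 1.17 and 1.61 in clip and 2.74, 2.55 and 2.54 in release kidneys, again with the clip kidneys apart from both other arms. Ndufa4, first assigned to complex I and now counted with complex IV, fell 1.76-fold (-0.81 ± 0.09, adjusted p = 0.000107).

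Complex II, succinate dehydrogenase, joins the citric acid cycle to the chain, and all 4 of its subunit genes were lower (median -1.08). Sdha, for the flavoprotein that oxidises succinate, stood at 4.03, 4.17 and 4.29 in control, 2.60, 2.41 and 2.72 in clip and 4.08, 3.93 and 4.03 in release kidneys. It fell 3.01-fold (-1.59 ± 0.11, adjusted p = 1.51e-05), the largest fall of any gene here outside complex IV. Sdhb, for the iron-sulfur subunit, stood at 5.18, 5.60 and 5.62 in control, 4.43, 4.06 and 4.41 in clip and 5.58, 5.44 and 5.31 in release kidneys and fell 2.25-fold (-1.17 ± 0.16). The membrane anchors Sdhc and Sdhd fell by 1.0 ± 0.12 and 0.89 ± 0.15 on the log2 scale. In these genes, too, the clip kidneys lay below all others.

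All 9 genes of complex III, which moves electrons from ubiquinol to cytochrome c, were lower (median -0.98). Uqcrb stood at 2.08, 2.58 and 2.59 in control, 0.68, 1.04 and 1.32 in clip and 2.47, 2.69 and 2.24 in release kidneys and fell 2.65-fold (-1.40 ± 0.21, adjusted p = 0.000653). Uqcrc2, for a core protein of the complex, fell 2.29-fold (-1.20 ± 0.11). Cyc1, for cytochrome c1, stood at 6.97, 7.02 and 7.0 in control, 5.94, 5.66 and 5.97 in clip and 7.02, 6.71 and 6.78 in release kidneys and fell 2.20-fold (-1.14 ± 0.12, adjusted p = 0.000102). In Cyc1 the spread within each arm was smaller than the step between clip and the other arms.

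Of the 17 genes of the ATP synthase 16 were lower (median -0.76), and the range of their changes, -1.04 to -0.41, was narrower than in the other complexes with over 4 genes. Atp5pb, for the peripheral stalk subunit b, stood at 6.76, 6.79 and 6.83 in control, 5.79, 5.63 and 5.84 in clip and 6.65, 6.60 and 6.65 in release kidneys and fell 2.05-fold (-1.04 ± 0.09, adjusted p = 3.28e-05). Atp5k, for subunit e, fell 1.92-fold (-0.94 ± 0.14) and Atp5g1, 1 of the 3 genes for the proton-carrying c subunit, 1.86-fold (-0.89 ± 0.16). Of the other c subunit genes Atp5g3 fell by 0.73 ± 0.14 on the log2 scale. Atp5g2 passed at -0.41 ± 0.12 (adjusted p = 0.0218), but it lost the call under 6 of 18 alternatives, stood at -0.03 with quantile normalization and changed by -0.14 on its second probe. Atp5b, for the catalytic beta subunit, stood at 5.95, 6.20 and 5.80 in control, 5.60, 5.56 and 5.50 in clip and 6.45, 6.59 and 5.98 in release kidneys. On this probe, the brightest of 3 for the gene, the change of -0.43 ± 0.17 did not pass (adjusted p = 0.0622), though the clip kidneys lay below the control kidneys, and it passed with slide as a block (adjusted p = 0.0205). The other probes of Atp5b changed by -1.06 and -0.98, and the mean of the 3 probes fell by 0.82 ± 0.11 (adjusted p = 0.000431). Its probes lay further apart than those of any of the 20 genes here with several probes, and in all 20 the probes pointed down.

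**Figure D2:**
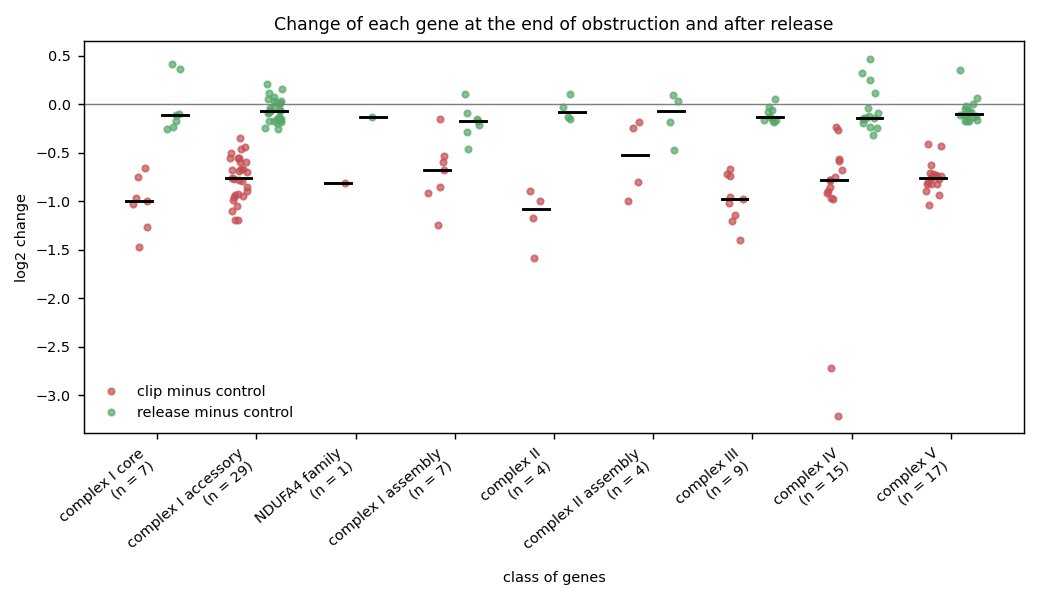
Log2 change of each gene against control by class of genes, with clip in red and release in green; each point is 1 gene and each black bar the median of its class. All red points lie below 0, Cox6a2 and Cox7a1 of complex IV lie lowest at -3.21 and -2.72, and the green points lie between -0.47 and 0.47.

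Complex IV, cytochrome c oxidase, held both the largest falls and 5 of the 12 genes that did not pass. Its other 10 genes were lower (median of all 15, -0.78). Several of its subunits come as pairs of isoforms, with 1 found in most tissues and 1 in fewer. For subunits VIa and VIIa the latter is best known from heart and skeletal muscle. Cox6a2, the muscle-type subunit VIa, stood at 1.44, 1.03 and 1.49 in control, -1.89, -1.96 and -1.83 in clip and 1.46, 0.71 and 1.03 in release kidneys. It fell 9.26-fold (-3.21 ± 0.20, adjusted p = 8.37e-06; -2.31 with normexp background correction). Cox7a1, the muscle-type subunit VIIa, stood at 4.46, 4.32 and 4.58 in control, 2.06, 1.43 and 1.72 in clip and 4.30, 3.93 and 4.17 in release kidneys. It fell 6.59-fold (-2.72 ± 0.17, adjusted p = 9.18e-06; -2.74 with normexp). Both probes were well above background on all 9 arrays, and in both genes every clip kidney lay below every other kidney.

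Their partners found in most tissues fell less. Cox6a1 stood at 8.94, 8.93 and 8.76 in control, 8.39, 8.23 and 8.29 in clip and 8.84, 8.71 and 8.64 in release kidneys and fell 1.49-fold (-0.57 ± 0.10, adjusted p = 0.00152). Cox7a2 stood at 5.99, 6.05 and 5.73 in control, 5.10, 4.97 and 4.95 in clip and 5.96, 5.86 and 5.58 in release kidneys and fell 1.89-fold (-0.92 ± 0.13, adjusted p = 0.000543). The within-array difference between the partners was then compared over arrays. Cox6a2 minus Cox6a1 was 2.64 log2 units lower in clip than in control kidneys and Cox7a1 minus Cox7a2 was 1.81 units lower, with no overlap of the arms in either pair. The exact two-sided permutation p was 0.1 for each, the smallest that 3 arrays against 3 allow, and 0.2 after adjustment over the 4 pairs tested. Cox6b2 minus Cox6b1 and Cox8b minus Cox8a differed by 0.35 and -0.24, with overlapping arms (exact permutation p = 0.4 and 0.8). In release against control kidneys the 4 differences moved by -0.11, -0.20, -0.29 and 0.61 in the order given, again with overlap (exact permutation p = 0.7, 0.5, 0.6 and 0.8).

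**Figure D3:**
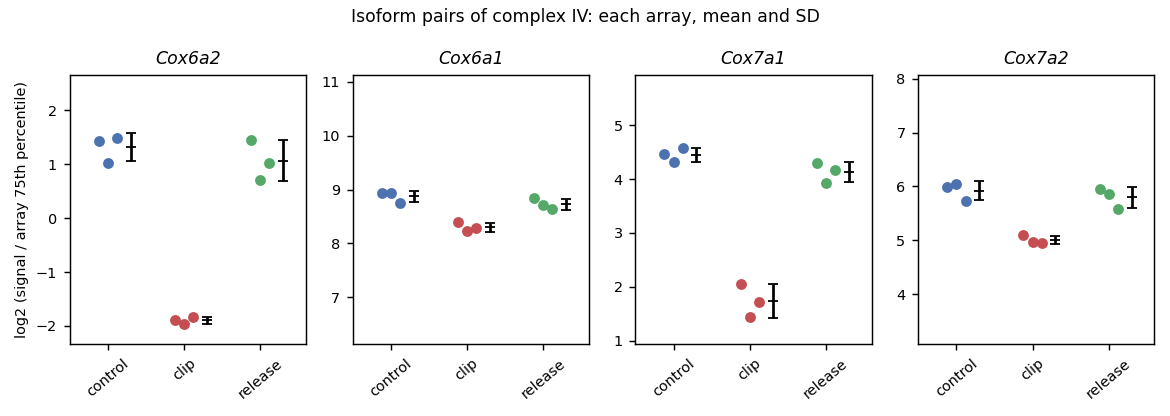
Levels of Cox6a2 and Cox7a1 (muscle-type isoforms) and of Cox6a1 and Cox7a2 (isoforms of most tissues) on each array by arm, with the mean and SD of 3 arrays in black; the y axes start at different levels and span the same 5 log2 units. The clip points drop by 3.21 and 2.72 units in Cox6a2 and Cox7a1 and by 0.57 and 0.92 units in Cox6a1 and Cox7a2, and the release points lie near the control points in all 4 panels.

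Muscle markers were read beside the muscle-type isoforms. Of 12 markers of skeletal and heart muscle only 5 could be tested, and Ckm, Actn2, Myh1, Myh2 and Myh4 were well above background on 0 of 9 arrays. Of those 5, Tnni2 and Actc1, above background on all 9 arrays, rose in clip kidneys (2.33 ± 0.13 and 2.61 ± 0.41), where Cox6a2 and Cox7a1 fell. Mb and Acta1 were well above background in the 3 clip kidneys alone and passed the filter through them, so their higher level there is not counted. Myh7, a myosin heavy chain of slow and heart muscle, was above background on 2 of 3 control arrays and 0 of 3 clip arrays. It passed the filter through kidneys other than clip, so its fall of at least 2.8-fold is not counted either.

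The 12 genes that did not pass in clip against control were Ndufs3, Ndufb3, Ndufaf2, Ndufaf5, Sdhaf2, Sdhaf3, Cox6b1, Cox6b2, Cox7a2l, Cox7c, Cox8b and Atp5b. In 3 of them the untreated control stood apart from both sham controls. Ndufs3, a core subunit gene of complex I, stood at 4.98 and 5.01 in the sham kidneys and at 3.73 in the untreated kidney, against 4.08, 3.96 and 3.71 in clip kidneys. Cox6b1 stood at 2.23 and 2.18 in sham, 1.0 in the untreated and 1.44, 1.29 and 0.92 in clip kidneys, and Ndufb3 at 5.27 and 5.53, 4.42, and 4.79, 4.56 and 4.49. The untreated kidney thus lay among the clip kidneys for Ndufs3 and Cox6b1 and below them for Ndufb3. With the sham kidneys alone as control the changes of Ndufs3, Cox6b1 and Ndufb3 were -1.08, -0.99 and -0.78 (adjusted p = 0.00109, 0.00511 and 0.00471), against -0.66, -0.59 and -0.46 with all 3 controls. Over all 93 genes the median untreated minus sham difference was -0.14. The untreated kidney was also the control on slide 3, scanned at another time, so treatment and slide cannot be told apart within the controls.

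Cox7c changed by -0.97 ± 0.36 (adjusted p = 0.0529) and passed with slide as a block (adjusted p = 0.00179). Cox8b, the muscle and brown fat partner of Cox8a, was well above background on 4 of 9 arrays and varied more within arms than between them. It stood at -0.80, -4.29 and -5.45 in control, -2.41, -5.63 and -5.45 in clip and -4.82, -3.23 and -1.09 in release kidneys. The highest arrays of the 3 arms were sham 1, clip 1 and release 3. Adipocyte genes stood high on the same arrays. Ucp1, the uncoupling protein of brown fat, stood at -1.96, -2.01 and -2.88 on sham 1, clip 1 and release 3 and between -6.86 and -5.88 on the other 6. Cidea, a lipid droplet protein of brown fat, stood at 0.87, -1.01 and 0.23 on these 3 arrays and at -1.82 or below on the other 6. Adipoq, Plin1 and Cidec were likewise highest in each arm on these arrays, whereas Fabp4 and Retn did not follow them. The summed level of all 7 adipocyte markers was 64.5 to 74.6 in control, 53.6 to 54.9 in clip and 71.3 to 77.6 in release kidneys. That sum is mostly the signal of Fabp4 and does not track the other markers. Fabp4 stood at 6.12, 5.99 and 6.0 in control and at 5.72, 5.73 and 5.74 in clip kidneys. The part of fat tissue in the Cox8b signal was not tested.

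**Figure D4:**
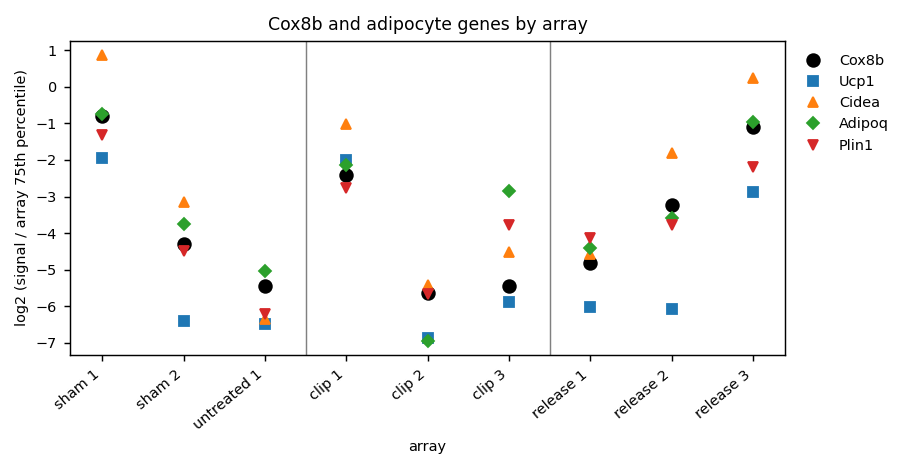
Level of Cox8b (black circles) and of the adipocyte genes Ucp1, Cidea, Adipoq and Plin1 on each array, on the log2 scale relative to the array's 75th percentile, with grey lines between arms. All 5 genes are highest within their arm on sham 1, clip 1 and release 3, where Cox8b stands at -0.80, -2.41 and -1.09.

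Assembly factor genes were called in 7 of 11 cases, and subunit genes in 74 of 82. Among those of complex I 5 of 7 were lower (median -0.68), led by Ndufaf4, which stood at 3.01, 3.0 and 3.11 in control, 1.73, 1.55 and 2.10 in clip and 2.63, 2.41 and 2.69 in release kidneys and fell 2.37-fold (-1.25 ± 0.15, adjusted p = 0.00019). Ndufaf6 and Ndufaf1 fell by 0.92 ± 0.11 and 0.85 ± 0.12. Of the complex II factors Sdhaf1, which helps insert iron-sulfur clusters, stood at 3.73, 3.69 and 3.79 in control, 2.66, 2.66 and 2.89 in clip and 3.46, 3.01 and 3.31 in release kidneys and fell 2.00-fold (-1.0 ± 0.13). Sdhaf4 fell by 0.80 ± 0.14, and Sdhaf2 and Sdhaf3 changed by -0.18 ± 0.09 and -0.25 ± 0.11 without passing. For Ndufaf4, Ndufaf6, Ndufaf1 and Sdhaf1 the release kidneys lay between the clip and control kidneys and overlapped neither. Some subunit genes, Cox7a1 among them, did the same. The difference between assembly factors and subunits was not tested.

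After release, 0 of the 93 genes were lower and 0 were higher than in control (limma, BH-adjusted; 0.372% of all genes were lower and 1.46% higher). At an unadjusted p under 0.05, 4 were lower and 1 was higher, against 9.12% and 12.4% of all genes. With slide as a block 14 were lower and 2 higher at that level, against 15.1% and 16.0% of all genes, and 0 passed after adjustment. The median change was -0.11, with all genes at -0.01, and the changes ran from -0.47 to 0.47. With quantile normalization the median was 0.01, so its direction depends on the scaling. The release kidneys lay wholly below the control kidneys in 17 genes, or 18.3%, and wholly above in 0 (13.6% of all genes in either direction). The lowest was Sdhaf1 (-0.47 ± 0.13, adjusted p = 0.0935), followed by Ndufaf4 (-0.46 ± 0.15, adjusted p = 0.13). Ndufs8, for a core iron-sulfur subunit, was the 1 gene above control at an unadjusted p under 0.05 (change 0.41, adjusted p = 0.196). By array the median gene lay at 0.01, -0.17 and -0.16 relative to its control mean in release 1, 2 and 3. Cox6a2 and Cox7a1 stood at -0.25 ± 0.20 and -0.32 ± 0.17 relative to control.

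Released kidneys were also set against clip kidneys, which shares arrays with both comparisons above. Of the 93 genes 82 were higher and 0 lower (23.5% of all genes were higher and 17.4% lower), with a median of 0.73 against 0.08 for all genes. The arms did not overlap in 86 genes, or 92.5%, against 31.4% of all genes, and 88 genes were higher with slide as a block (29.4% of all genes). Cox6a2 and Cox7a1 were 7.77-fold and 5.29-fold higher in released than in clip kidneys, Sdha was 2.71-fold and Ndufs1 2.38-fold higher. The 11 genes that did not pass were Ndufb3, Ndufb6, Ndufaf2, Ndufaf5, Ndufaf7, Sdhaf3, Cox6b1, Cox6b2, Cox7a2l, Cox8b and Atp5g2.

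Other genes of mitochondrial energy supply were read from further lists. Of 17 tested genes listed for the citric acid cycle and pyruvate dehydrogenase, 16 were lower in clip kidneys and 0 higher (median -1.04). Of all genes 27.5% were lower and 21.4% higher in that comparison. Pcx, for pyruvate carboxylase, which the list holds beside the cycle and pyruvate dehydrogenase, and Dlat, for a subunit of pyruvate dehydrogenase, fell most (-1.86 ± 0.19 and -1.51 ± 0.10). Of 17 genes for cytochrome c and for entry of electrons at ubiquinone 14 were lower and 0 higher (median -0.99), with Prodh, for proline dehydrogenase, at -1.90 ± 0.12 and Coq9, for ubiquinone synthesis, at -1.62 ± 0.16. Cycs, cytochrome c itself, fell by 0.99 ± 0.11. Prodh was the 1 gene of any of these lists called after release (-0.62, adjusted p = 0.0451), and it lost that call under 15 of the alternatives. Of 7 genes for exchange of nucleotides and phosphate 6 were lower (median -0.83), led by Ckmt1 and Vdac1 (-1.05 ± 0.12 and -0.92 ± 0.11).

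Lists for building the machinery had medians closer to 0, a difference that was not tested. Of all genes 27.5% were lower and 21.4% higher in clip against control. Complex IV assembly factors were lower in 16 of 21 (median -0.47), with Coa6 at -1.29 ± 0.13 and Cox15 at -1.19 ± 0.14. Assembly factors of complexes II, III and V were lower in 7 of 12 (median -0.43), a list that repeats the 4 Sdhaf genes, with Tmem70, an ATP synthase assembly factor, at -1.06 ± 0.17. Other complex I assembly factors were lower in 6 of 9 (median -0.72), led by Acad9 and Foxred1 (-1.33 ± 0.11 and -0.96 ± 0.10). Import and chaperone genes were lower in 15 of 24 (median -0.46; Timm8a1 -1.02 ± 0.10 and Hspd1 -0.96 ± 0.10), and genes of the mitochondrial ribosome in 54 of 77 (median -0.41; Mrps21 -1.09 ± 0.15 and Mrpl34 -0.94 ± 0.11). Of these lists only the ribosome held genes that were higher, Mrpl33 (0.84 ± 0.09) and Mrpl52 (0.56 ± 0.08), and neither passed with normexp background correction. With quantile normalization the counts for the complex IV factors and the ribosome dropped to 9 and 30, where 4210 of all 17745 genes were lower.

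**Figure D5:**
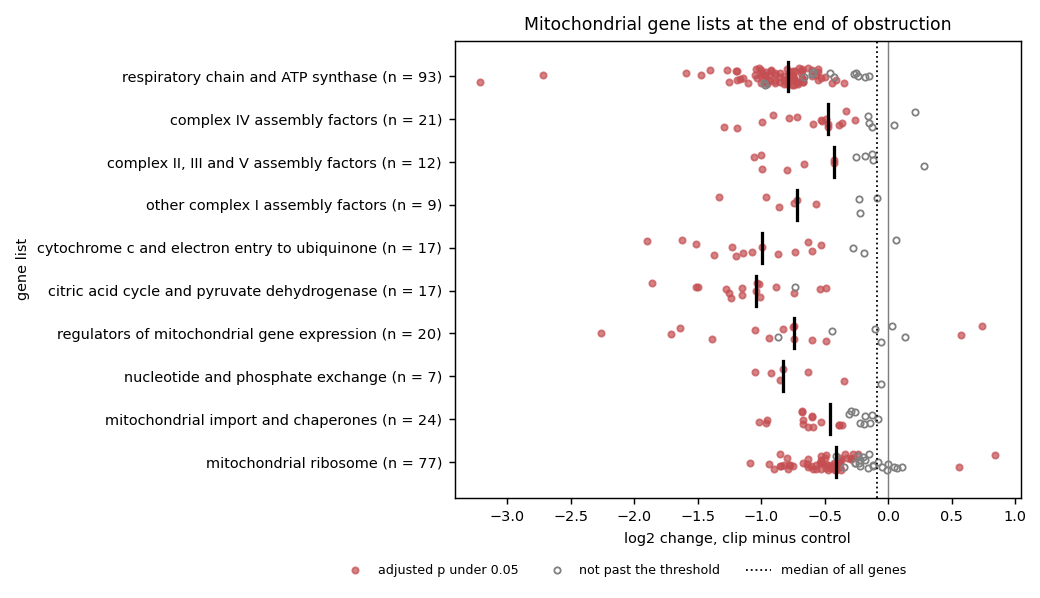
Log2 change in clip against control for each gene of the respiratory chain set and of 9 further mitochondrial lists; filled points passed the test, open points did not, black bars are list medians and the dotted line is the median of all genes at -0.09. The medians of the citric acid cycle list (-1.04) and of the list for cytochrome c and electron entry (-0.99) lie lowest, and that of the mitochondrial ribosome (-0.41) highest.

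Of 20 tested regulators of mitochondrial genes 12 were lower and 2 higher in clip kidneys (median -0.74), where 27.5% of all genes were lower and 21.4% higher. Esrra, the estrogen-related receptor known to drive many respiratory chain genes, stood at 3.53, 3.39 and 3.56 in control, 2.00, 2.05 and 2.26 in clip and 3.35, 3.34 and 3.22 in release kidneys and fell by 1.39 ± 0.10 (adjusted p = 1.7e-05). Its relatives Esrrb and Esrrg fell by 2.26 ± 0.14 and 1.05 ± 0.28, and the fatty acid receptor gene Ppara by 1.71 ± 0.14. Esrrg lost its call without clip 1 or without clip 2. Tfam, which packages mitochondrial DNA, fell by 0.74 ± 0.09. Ppargc1a, the coactivator PGC-1alpha, stood at 3.51, 3.43 and 4.31 in control and 2.52, 2.68 and 3.43 in clip kidneys, which overlap, and its change of -0.87 ± 0.34 did not pass (adjusted p = 0.0641). Within the 3 slides it was -0.99, -0.75 and -0.87, and it passed under 6 of 18 alternatives, among them slide as a block (adjusted p = 0.000264). Gabpa, a subunit of the ETS factor GABP, changed by -0.44 ± 0.16 without passing (adjusted p = 0.0522) and passed under 7 of 18, among them slide as a block (adjusted p = 0.00382). Nrf1 changed by 0.13 ± 0.16 and did not pass. The 2 genes called higher were Pprc1 (0.57 ± 0.13), called under all 18 alternatives, and Gabpb1, the partner of Gabpa (0.74 ± 0.13). The probes of Gabpb1 disagreed in direction (0.74 and -0.44), and their mean did not pass (0.15, adjusted p = 0.273). After release 0 of the 20 were called in either direction, though Ppara passed under 3 alternatives, among them slide as a block.

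The start regions of the genes were searched for 3 motifs that these factors are known to bind. RefSeq start windows (GRCm38.p6, 250 bases before to 50 after the start) were found for 78 of the 93 genes, in 83 windows. Matches on either strand were counted over whole windows, and the windows were not matched for base composition. The estrogen-related receptor site AAGGTCA was in 9.64% of the windows, against 4.72% of all 32851 windows. The NRF1 core GCGCATG was in 18.1% against 3.91%, and the ETS core CCGGAAG, read by GABP, in 25.3% against 8.86%. At least 1 of the 3 was found in 34 of the 78 genes, whose median clip change was -0.74, and none in the other 44, whose median was -0.80. A letter match is a description and not measured binding.

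The stretches before the start of 7 genes that fell and hold such matches are printed beside that of Cox7a1, the gene of larger fall in whose window none of the 3 motifs was found. Capitals mark the motif letters on either strand, so that the receptor site also appears as TGACCTT, the NRF1 core as CATGCGC and the ETS core as CTTCCGG; the NRF1 core on both strands overlaps to give a run of 10 capitals.
Cox6a1: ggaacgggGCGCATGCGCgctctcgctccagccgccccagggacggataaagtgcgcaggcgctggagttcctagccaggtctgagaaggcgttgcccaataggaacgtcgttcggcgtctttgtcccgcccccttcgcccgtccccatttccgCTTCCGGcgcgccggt
Cox7a1: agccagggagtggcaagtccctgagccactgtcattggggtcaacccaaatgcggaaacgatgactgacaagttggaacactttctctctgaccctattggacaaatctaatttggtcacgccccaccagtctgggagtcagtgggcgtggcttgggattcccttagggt
Atp5k: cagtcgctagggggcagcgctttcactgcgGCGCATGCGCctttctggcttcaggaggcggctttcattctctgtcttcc
Ndufaf4: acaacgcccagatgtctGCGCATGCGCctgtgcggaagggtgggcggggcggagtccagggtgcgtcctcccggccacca
Sdhb: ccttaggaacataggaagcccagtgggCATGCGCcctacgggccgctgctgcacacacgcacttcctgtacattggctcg
Sdhd: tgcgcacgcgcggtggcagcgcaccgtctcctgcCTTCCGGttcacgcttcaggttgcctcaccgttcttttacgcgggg
Atp5g3: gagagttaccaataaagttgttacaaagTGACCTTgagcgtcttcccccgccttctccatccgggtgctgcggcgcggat
Ndufb4: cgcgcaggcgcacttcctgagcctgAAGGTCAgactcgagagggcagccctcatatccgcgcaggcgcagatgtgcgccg
The isoform genes are shown over the 170 bases before the start, Cox6a1 at chr5:115348959-115349128 on the minus strand and Cox7a1 at chr7:30184001-30184170 on the plus strand. Cox6a1, which fell 1.49-fold, holds the overlapping NRF1 cores and, next to its start, an ETS core, while Cox7a1, which fell 6.59-fold, holds none of the 3 in its whole window. Cox7a2, the partner of Cox7a1, holds none of the 3 either and fell 1.89-fold, and no window was found for Cox6a2. The NRF1 core on both strands also stands in Atp5k (chr5:108434400-108434479, minus) and Ndufaf4 (chr4:24897953-24898032, plus), and on 1 strand in Sdhb (chr4:140961191-140961270, plus). Sdhd (chr9:50603850-50603929, minus) shows an ETS core, and Atp5g3 (chr2:73911327-73911406, minus) and Ndufb4 (chr16:37654369-37654448, minus) the receptor site. These stretches are 80 bases long, and in Ndufaf4 end 51 bases before the start. Past the start, the windows of Atp5k and Sdhd also hold the receptor site and those of Atp5k and Sdhb an ETS core. That of Ndufaf4 holds a further NRF1 core there.

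Markers of the nephron moved with these genes. Of 13 proximal tubule markers 12 were lower in clip kidneys (median -1.56), and their summed level ran from 707 to 872 in control, 209 to 327 in clip and 645 to 761 in release kidneys. All 9 markers of the thick limb and distal tubule were lower (summed level 425 to 485, 155 to 190 and 471 to 511), as were 6 of 9 collecting duct markers (98.5 to 118, 24.9 to 31.5 and 94.2 to 113). Of the markers above background outside the clip kidneys too, 8 of 9 rose for macrophages (summed level of all 10 tested, 9.14 to 11.2 in control, 33.3 to 37.9 in clip and 14.6 to 17 in release kidneys) and 5 of 5 for dividing cells. Itgam, Top2a and Aurkb passed the filter through the clip kidneys alone and are left out of these counts, while Itgam stays in the summed level. Ccr2 and Ccnb1, well above background on at most 5 of 9 arrays, are in the counts. They may have reached the filter of 3 arrays only with the clip kidneys, so their rise is not read as a result. Of 8 endothelial markers 2 were lower and 1 higher, and of 11 pericyte and smooth muscle markers 3 were lower and 5 higher. In this comparison 27.5% of all genes were lower and 21.4% higher, so the endothelial counts and the lower pericyte count lie near these shares. The part of these cell type changes in the fall of the respiratory chain genes was not tested, and in RNA of whole kidney fewer tubule cells and less RNA of a gene per cell cannot be told apart.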

How the data were processed

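Per the labels, 500 ng of total RNA from each whole left kidney was labelled with 1 dye and hybridized to Agilent mouse arrays. Per the file headers, Feature Extraction 10.7.3.1 made the deposited intensity of each spot with background subtracted, on design 014868, with no scaling between arrays. Other columns of the deposited files hold flags for spots well above background, saturated or outlying. A deposited table of log2 values was not used, since its values did not match the probes its rows name (median r 0.0188).

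Each processed intensity was scaled to the 75th percentile of its array before log2 was taken. Outlier spots and 1639 control spots were dropped and repeat spots averaged. RefSeq accessions gave symbols to 26690 of 41174 probes. The brightest probe well above background on at least 3 arrays stood for a gene. The 3 arms were fitted over all 9 arrays with limma 3.58.1 (R 4.3.3), tested on simulated data, with Benjamini-Hochberg (BH) adjustment over all 17745 genes at 0.05; errors are SE. With the dimmer arm below background on all its arrays, a fold is "at least", against the higher of the gene's own signal and the lowest signal above background per array. The labels give 1 mouse per array and the number of arrays limits the precision.

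Named genes are, by class, the 3 largest falls and rises past the threshold in clip against control, all of complex II, Cyc1, the isoform pairs, the 2 largest falls and rises of each list, and 6 regulators; other genes were named after their values were seen. The values of 1 gene that this rule names are not reported here. The gene set and lists were chosen with earlier results of these data known. Deviations from arm means correlated at 0.161 to 0.282 between arrays of a slide and at -0.239 to 0.00296 otherwise. Normexp used median spot and local background signals, offset 50, since no mean signal was at hand. Proteins of the isoforms were not used here.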

Additional observations from a re-analysis of the deposited data

How the results depend on the processing

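The counts of called respiratory chain genes kept within 1.5 times their size under every alternative run: quantile normalization, normexp background correction, slide as a block, the replicate block, sham kidneys alone as control, only the 2 arms compared, the mean of a gene's probes, no filter or a stricter filter on dim probes, and leaving out each array. Sham kidneys alone as control and leaving out the untreated kidney gave the same values but are counted separately among the alternatives. In clip against control 71 genes were lower with quantile normalization (4210 of all 17745 genes), 84 with normexp (3107 of all genes) and 75 to 85 without each array in turn. In each of these 0 of the 93 were higher, against 4351 of all genes with quantile normalization and 2517 with normexp. Of the 81 calls 71 held under every alternative, and 10 were lost under at least 1, each of them with quantile normalization. Atp5g2, Ndufa2, Ndufa7, Ndufb2, Ndufb7 and Ndufb11 were also lost without sham 1 or sham 2, all but Ndufa7 without clip 2, all but Ndufb11 without clip 3, and Ndufa2 without clip 1. Release against control gave 0 calls among the 93 genes throughout. With only the 2 arms compared, 0 of all genes were lower and 0 higher in that comparison, and with normexp 1 was lower and 0 higher. Under these 2 settings 0 calls therefore say little about the 93 genes. In release against clip 74 genes were higher with quantile normalization (3644 of all genes), 81 with normexp (2270 of all genes) and 74 to 84 without each array in turn. The median change of all genes in clip against control moved from -0.09 to -0.02 with quantile normalization and 0.10 with normexp, and that of the respiratory chain genes from -0.79 to -0.53 and -0.97. The replicate block, whose numbers do not pair the arrays (correlations of -0.209 to 0.27 for the same number), gave 79 lower genes in clip against control (4837 of all genes) and 80 higher in release against clip (4368 of all genes).

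Among the further lists, quantile normalization left 9 complex IV assembly factors and 30 mitochondrial ribosome genes lower in clip kidneys, beside 4210 of all 17745 genes. It called 1 gene higher in each of the lists for complex II, III and V factors and other complex I factors, beside 4351 of all genes. The 8 complex II, III and V factors higher in release than in clip kidneys became 4 with quantile normalization and 5 with normexp. Prodh after release was lost (0) with both, and with normexp 0 ribosome genes were higher in clip kidneys, and 1 regulator and 1 ribosome gene were lower in release than in clip kidneys. The causes of these shifts were not tested. A change of sign in a gene called under neither setting was not counted as a reversal. Of the 93 genes 89 were below control in clip kidneys under every alternative.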
